A study of Mus musculus with 214 samples.

Results

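Translesion synthesis genes were followed in mouse liver after N-nitrosodimethylamine (NDMA), a methylating carcinogen that hepatocytes activate. The set holds 8 genes, Polk, Polh, Poli, Rev1, Rev3l, Mad2l2, Rad18 and Pcna. They were chosen by symbol, and all 8 had a row among the 18647 genes of the wild-type (WT) data and the 19540 genes of the Mgmt-/- data. Mgmt-/- mice lack O6-methylguanine DNA methyltransferase, the enzyme that removes methyl groups from guanine. Both genotypes carried the RaDR+/+ and GPT+/+ reporter alleles on a C57BL/6 background, so the controls held these alleles too. NDMA was injected intraperitoneally at 3.5 mg/kg on postnatal day 8 and at 7 mg/kg on postnatal day 15, and control mice had saline on the same days. Livers of males and females were collected 1, 2 and 5 days after the second dose, and again at 10 weeks and 10 months. RNA was read as 3′ digital gene expression, which tags the 3′ end of transcripts. The levels below are normalised read counts, that is, reads per gene divided by a size factor of the library. In this order of times, 12, 8, 8, 8 and 13 NDMA and 12, 7, 6, 8 and 12 saline Mgmt-/- mice were compared, and 26, 8, 8, 8 and 13 NDMA and 21, 8, 7, 8 and 10 saline WT mice.

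Translesion polymerases copy DNA past bases that stall the replicative polymerases. Polk, Polh, Poli and Rev1 belong to the Y family, and Rev1 also serves as a scaffold for the others. Rev3l is the catalytic subunit of polymerase zeta and Mad2l2 (Rev7) its accessory subunit, which also belongs to the shieldin complex at double-strand breaks. Rad18 is the ubiquitin ligase that marks Pcna, the sliding clamp, at stalled forks, and the mark recruits the Y family polymerases. Transcription of mouse Polk has been described as responsive to p53 and to the aryl hydrocarbon receptor.

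The results turn on Polk, which lies on the minus strand of chromosome 13 (GRCm38, chr13:96480690-96542579), a gene with 11 annotated transcripts in GENCODE. Its promoter windows are shown because Polk was the member with the largest changes. RefSeq gives 2 starts, and each window runs from 250 bases before a start to 50 bases after it, 5′ to 3′ on the minus strand. The outer window is chr13:96542530-96542829 and the inner one, inside the gene, is chr13:96519138-96519437. Capitals mark the letters that match the p53 half-site, or GCGTG, the core of the xenobiotic response element, on either strand.
Polk outer start: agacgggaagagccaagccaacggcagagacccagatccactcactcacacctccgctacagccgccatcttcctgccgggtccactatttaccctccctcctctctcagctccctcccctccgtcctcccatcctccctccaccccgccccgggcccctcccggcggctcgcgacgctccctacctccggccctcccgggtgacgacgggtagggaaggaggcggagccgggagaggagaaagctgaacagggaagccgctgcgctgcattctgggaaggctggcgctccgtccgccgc
Polk inner start: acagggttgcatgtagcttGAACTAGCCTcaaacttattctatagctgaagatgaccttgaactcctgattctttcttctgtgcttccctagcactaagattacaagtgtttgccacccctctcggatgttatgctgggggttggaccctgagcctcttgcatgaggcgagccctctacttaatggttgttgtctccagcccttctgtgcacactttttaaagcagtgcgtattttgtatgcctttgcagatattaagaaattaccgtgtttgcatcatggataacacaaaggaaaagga
The inner window held 1 match to the p53 half-site, which reads on both strands, and the outer window none, and neither window held GCGTG. Among all 32851 promoter windows of this length, 8.36% held a p53 half-site match and 32.4% held GCGTG. The 9 windows found for 6 members included 1 with a p53 half-site match, the inner one of Polk, and 5 with GCGTG. Those 5 belonged to Rev1, Polh, Mad2l2 and Rad18. The windows of Rad18 overlap and share the same GCGTG site, which is thus counted in both. These are matches of letters only, and binding was not measured.

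Depth was between 713584 and 7740710 reads in Mgmt-/- libraries and between 150038 and 4791649 in WT libraries. Each replicate was a separate mouse, numbered without pairing. Transcripts of this set were sparse. The median Mgmt-/- saline library at day 1 held 8.5 Polk reads, and the median WT saline library 4. Some libraries stood apart. In 2 Mgmt-/- saline livers of day 5 the kidney transcript Kap stood above 1000, and they were left out. In 5 WT libraries of days 1 to 5 the p53 target Cdkn1a lay on the other treatment's side of the midpoint between the group medians. At day 1, in batch 200803Eng, these were NDMA livers with Cdkn1a at 30.3 and 16.3, whose sex-specific transcripts also went against the labelled sex, and a saline liver with Cdkn1a at 358.6. The others were saline livers of batch 200724Eng, at day 2 with 212.5 and at day 5 with 109.0. The main changes of Polk and Mad2l2 that used these libraries, and the shares of all genes called, are also given without them, in alternatives chosen after the data were seen. Since Cdkn1a, which rose with NDMA as Polk did, picked them out, the values without them are no independent support.

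Polk was higher in NDMA than in saline Mgmt-/- livers 1 day after the second dose, the first collection. The ratio of the group medians was 5.3 at day 1, 5.86 at day 2 and 6.54 at day 5. At day 1 the saline mice had 1.86, 7.04 and 9.86 (lowest, median, highest) normalised counts, and the NDMA mice 18.4, 37.3 and 62.1. All 12 NDMA mice lay above the highest saline mouse, a separation that 0.776% of the genes tested shared. The log2 fold change was 2.33 (SE 0.21, limma adjusted p = 6.5e-11), and 90 of the 10055 genes tested had a larger one. Polk and Mad2l2 were the only members called higher at day 1, 2 of 7 tested, where 9.06% of all genes were called higher and 8.64% lower. A call asked for an adjusted p under 0.05 and a log2 fold change of at least 0.58 in size. The median over the 7 was 0.45, beside 0.02 over all genes. Scaling all libraries to an equal total moved the median of all genes by 0.19 and the share of calls that were higher from 51.2% to 76.2%, and Polk (2.52) and Mad2l2 (0.85) remained called while Rev1 was called too (0.63, adjusted p = 0.044).

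At day 2 Polk was at 2.06, 4.97 and 7.73 in saline and at 14.7, 29.1 and 39.8 in NDMA mice, and at day 5 at 2.4, 3.82 and 8.2 against 21.9, 25.0 and 32.8. The groups did not overlap at either time, with 8 of 8 NDMA mice above every saline mouse. Such a separation in the higher direction was shared by 6.19% of the genes tested at day 2 and by 6% at day 5. The log2 fold changes were 2.47 (SE 0.27, adjusted p = 9.0e-08) and 2.41 (SE 0.24, adjusted p = 3.2e-08). Of 7 members tested, 1 was called higher and 1 lower at day 2, and 1 higher at day 5, against 12.4% and 7.5% of all genes at day 2, and 11.1% and 6.71% at day 5. Polk averaged 4.57 and 4.37 in the saline mice of these times and passed the filter on a mean of 5 through the NDMA mice, so the counts are descriptions. With no filter its adjusted p was 2.2e-07 and 5.1e-08. The medians over the 7 were 0.19 and 0.26, beside 0.03 over all genes at both times. With equal library totals the share of calls that were higher went from 62.2% to 80.3% at day 2 and from 62.4% to 77.9% at day 5, with shifts of the median of 0.16 and 0.15.

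By week 10 Polk in NDMA mice lay within the range of the controls. It was at 7.92, 13.2 and 19.2 in NDMA and at 5.19, 10.5 and 21.1 in saline mice, and none of the 8 NDMA mice exceeded the highest saline mouse (log2 fold change 0.28, SE 0.32, adjusted p = 0.67). At month 10 the values were 3.47, 9.14 and 22.8 against 3.89, 11.7 and 23.1 (log2 fold change -0.09, SE 0.25, adjusted p = 0.87). The treatment change was smaller than that at day 1, by 2.06 log2 units at week 10 (SE 0.37, adjusted p = 3.3e-05) and 2.44 at month 10 (SE 0.33, adjusted p = 1.2e-08). Changes smaller than at day 1 were found for 2% of all genes at week 10 and for 4.01% at month 10. Against day 1, the changes at days 2 and 5 differed by 0.14 (SE 0.38) and 0.08 (SE 0.39), with adjusted p of 0.99 at both times.

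**Figure D1:**
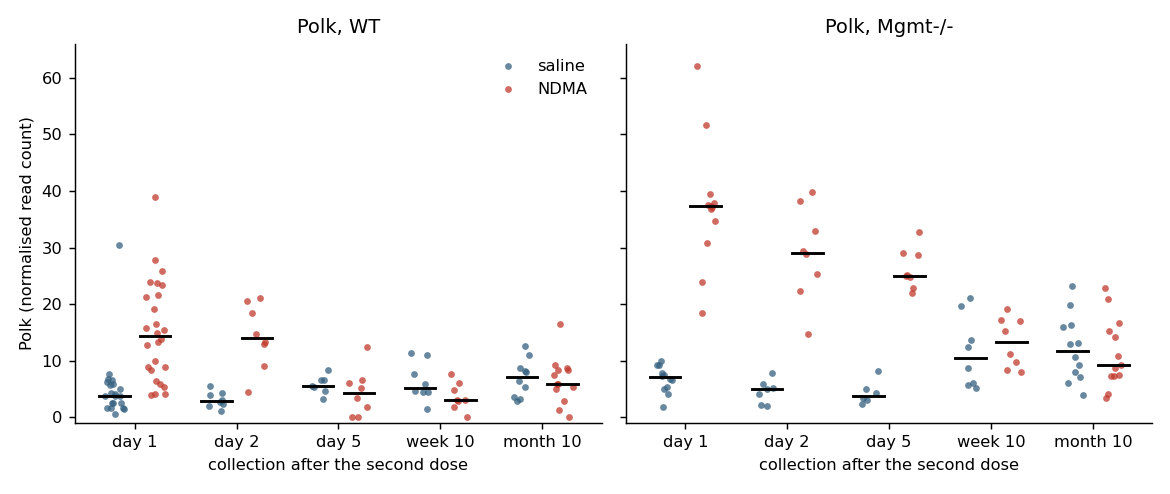
Polk in normalised read counts (y axis) at each collection time (x axis) in WT (left) and Mgmt-/- (right) livers, 1 point per mouse and a black bar at each group's median. In Mgmt-/- liver the NDMA points of days 1, 2 and 5 lie above every saline point, and in WT liver the NDMA medians lie above the saline medians at days 1 and 2 only, with 1 saline mouse of day 1 at 30.4.

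In WT liver Polk rose too, and the rise was seen at days 1 and 2. At day 1 the saline mice were at 0.605, 3.77 and 30.4, and the NDMA mice at 3.89, 14.4 and 38.9. The groups overlapped. The saline value of 30.4 came from the liver with high Cdkn1a, and the NDMA livers with low Cdkn1a had 5.82 and 4.07. The log2 fold change was 1.54 (SE 0.23, adjusted p = 6.7e-07), and 1.78 (SE 0.20, adjusted p = 2.6e-10) without these 3 libraries. Polk was the only one of 5 members tested that was called, where 5.01% of all genes were called higher and 4.19% lower (6.23% and 5.33% without the 3 libraries). The share of calls that were higher was 54.5%, and 65.3% once all libraries had an equal total.

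The batches of day 1 gave unequal values. All 8 NDMA mice of batch 191212Eng (median 20.4) lay above the highest of 8 saline mice (6.8). In batch 210901Eng this held for 9 of 12 NDMA mice, whose median was 8.93, against a saline median of 2.54 in 9 mice. The share of all genes that separate so within a batch was not counted, so these separations are descriptions. The changes of Polk in batches 191212Eng and 210901Eng were 1.93 (SE 0.24, adjusted p = 2.1e-06) and 1.53 (SE 0.34, adjusted p = 0.0026). In batch 200803Eng 1 of 6 NDMA mice lay above every saline mouse, and the change there was 0.86 (adjusted p = 1.00), but 2.04 (SE 0.46, adjusted p = 0.020) without the 3 libraries that went against their labels.

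**Figure D2:**
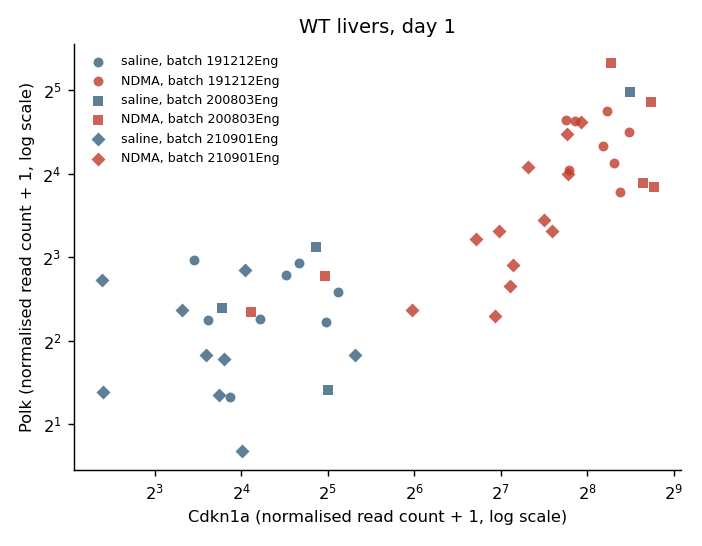
Polk against Cdkn1a in WT livers at day 1, both as normalised read count + 1 on log2 axes, 1 point per mouse, coloured by treatment and shaped by batch. Treatment separates the points along the Cdkn1a axis except for 2 NDMA squares among the saline points and 1 saline square among the NDMA points, all of batch 200803Eng.

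At day 2 WT saline mice had 1, 2.87 and 5.45 normalised counts of Polk and NDMA mice 4.46, 14.01 and 21.0, and 7 of 8 NDMA mice lay above every saline mouse. The log2 fold change was 1.88 (SE 0.35, adjusted p = 0.0023), and 1.89 (SE 0.36, adjusted p = 0.0016) without the saline library whose Cdkn1a went against its label. With Mad2l2, 2 of 4 members tested were called higher, where 3.33% of all genes were called higher and 2.91% lower (4.69% and 4.43% without that library), 53.4% of calls being higher, or 68.0% with equal library totals. This count is a description, since Polk averaged 3.08 in saline mice and passed the filter through the NDMA mice. With no filter its adjusted p was 0.0037. In batch 200724Eng alone, with 4 mice in each group, Polk changed by 1.96 (adjusted p = 0.34), and in batch 200710Eng by 1.79 (adjusted p = 0.023). At day 5 Polk was at 3.18, 5.46 and 8.38 in saline and at 0, 4.27 and 12.5 in NDMA mice, and the groups overlapped throughout, with 1 of 8 NDMA mice above every saline mouse and 3 below. The change was -0.78 (SE 0.55, adjusted p = 0.49), and limma called none of 5 members, none of them below an unadjusted p of 0.05, where 2.22% of all genes were called higher and 1.39% lower (3.95% and 2.66% without the saline library against its label). Here 61.5% of calls were higher with limma and 42.4% with edgeR, and Polk changed by -0.14 (adjusted p = 0.905) with edgeR.

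Without the saline library of day 5 whose Cdkn1a went against its label, Polk averaged under 5 and left the test. The WT libraries of day 5 were shallow, with medians of 950371.0 reads in NDMA and 1506105.0 in saline mice. The NDMA livers at 0 had 202626 and 631832 reads, and 3 reads there would equal 24.6 and 7.19 normalised counts. With depth (log2 of a library's reads) as a covariate the change at day 5 was 0.23 (adjusted p = 0.87). Compared with day 1, the change at day 5 was smaller by 2.29 log2 units (SE 0.50, adjusted p = 0.0033), with 1.52% of all genes smaller at this time, or by 2.44 (SE 0.49) without the libraries against their labels, given as a description since Polk left the day 5 test there. Days 2 and 5 of WT mice share their batches, and between them the change differed by -2.62 (SE 0.61, adjusted p = 0.072) with limma and by -1.85 (adjusted p = 1.00) with edgeR, in a comparison chosen after the data were seen. Without these libraries limma gave -2.58 (SE 0.60), also a description only. WT mice of day 1 shared no batch with those of day 5 or week 10, so time and batch cannot be told apart in these contrasts with day 1. At week 10 Polk was below the level needed for its test, with 0, 3.05 and 7.58 in NDMA and 1.42, 5.22 and 11.3 in saline mice, and the groups overlapped. At month 10 it was at 0, 5.94 and 16.6 against 2.92, 7.17 and 12.6 (log2 fold change -0.29, SE 0.37, adjusted p = 0.82). Compared with day 1 the change was smaller by 1.82 (SE 0.43, adjusted p = 0.0077) at month 10, where 0.868% of all genes were smaller. At week 10 it was smaller by 2.27 (SE 0.49), a description only, since Polk reached the level needed for this contrast through other times and not at week 10. Without the day 1 to 5 libraries against their labels the value of month 10 was 2.07 (SE 0.41, adjusted p = 0.00028). With limma no member was called at these times, of 3 and 5 tested, and none had an unadjusted p under 0.05. Of all genes 0.0249% were called higher at week 10 and 0% at month 10, and 0% were called lower at both times, while 350 and 757 genes had an unadjusted p under 0.05. edgeR called 0 genes at both times.

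Whether Polk responded differently in the 2 genotypes was tested on whole reads with edgeR. The treatment change was larger in Mgmt-/- liver by 0.56 log2 units (SE 0.37) at day 1 and by 0.78 (SE 0.55) at day 2, with adjusted p of 0.67 and 0.50, or by 0.25 (adjusted p = 0.92) and 0.79 (adjusted p = 0.51) without the libraries against their labels, so no difference was shown at these times, where 0% and 2.42% of all genes had a larger change in Mgmt-/- liver. At day 1 batch 191212Eng, with both genotypes, gave 0.24. Batch 200803Eng, the other with both, gave 1.48 (SE 0.89), but 0.05 (SE 0.93) without its 3 libraries against their labels. At day 5 it was larger by 2.67 (SE 0.58, adjusted p = 0.0012), where 1.67% of all genes had a larger and 0.741% a smaller change. The term was 2.60 without the library whose Cdkn1a went against the label, and 2.45 to 3.08 when each of the 29 mice was left out in turn. Without that library, and without some other WT mice, Polk averaged under 5 in WT liver. It then stayed in this test through the Mgmt-/- NDMA mice, so these values are descriptions. The batches of days 2 and 5 and of week 10 each held a single genotype, so that the effects of batch and genotype cannot be told apart at these times. The differences at week 10 (0.78, SE 0.53, adjusted p = 0.47) and month 10 (-0.09, SE 0.41, adjusted p = 0.955) were not called.

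The direct p53 targets on a list of 12 genes were set beside Polk. In Mgmt-/- liver 11 of 12 tested rose at day 1, 10 of 10 at days 2 and 5, 6 of 10 at week 10 and 2 of 9 at month 10, and none fell. Their median log2 fold changes were 2.71, 3.16, 2.76, 1.54 and 0.12, beside medians over all genes tested of 0.02, 0.03, 0.03, 0.04 and -0.01. Of those tested, 6, 4, 4, 3 and 0 averaged under 5 in saline mice and passed the filter through the NDMA mice, Phlda3 and Eda2r among them up to week 10, so these counts and medians are descriptions. At day 1 the largest in the main limma fit were Phlda3, an inhibitor of Akt signalling (4.92, SE 0.27, adjusted p = 4.0e-17), and Eda2r, a death receptor (4.67, SE 0.26, adjusted p = 1.6e-16). The saline median of Eda2r was 0, so that the size of its change depends on the pseudocount. Cdkn1a, the cell cycle inhibitor p21, rose by 4.42 (SE 0.15, adjusted p = 3.7e-23) and Ccng1, cyclin G1, by 3.44 (SE 0.16, adjusted p = 6.1e-19). Over the alternatives Phlda3 ran from 3.37 to 5.64, Eda2r from 2.76 to 6.65 and Cdkn1a from 4.01 to 4.63. The order of these genes thus held for the main fit but not for every alternative.

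Several of these genes were still called higher in Mgmt-/- liver at week 10, when Polk was not. Cdkn1a was higher by 4.95 log2 units (SE 0.32, adjusted p = 1.8e-10), Phlda3 by 3.16 (SE 0.44), Eda2r by 1.64 (SE 0.48; the call was lost, at 1.39 to 1.597, without any of NDMA D209005, D209006, D209029 and D209030 and saline D209003 and D209027) and Ccng1 by 1.04 (SE 0.22), while Polk was at 0.28 (SE 0.32). Phlda3 averaged 0.26 in saline mice of week 10, and its change ran from 1.48 to 4.38 over 9 alternatives. That of Eda2r ran from 0.97 to 2.19. In WT liver at day 5, where Polk was at -0.78 (SE 0.55), 7 of 9 targets tested were called higher, Cdkn1a by 3.98 (SE 0.62, adjusted p = 0.0035) and Ccng1 by 2.00 (SE 0.38, adjusted p = 0.0069). With depth (log2 of a library's reads) as a covariate these were 3.13 and 1.92, each with an adjusted p of 0.088. The WT counts at the other times were 10 of 10 at day 1, 7 of 10 at day 2, and by limma 0 of 6 at week 10 and 0 of 8 at month 10, with 1 gene below an unadjusted p of 0.05 at each of the late times. Without the libraries against their labels, which Cdkn1a of this list picked out, the counts of days 1, 2 and 5 were 10 of 10, 8 of 10 and 7 of 9. Of the WT targets tested, 4, 2, 3, 1 and 1 passed the filter through the NDMA mice. These are each gene's own changes against the same control mice, and the differences between genes were not tested.

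**Figure D3:**
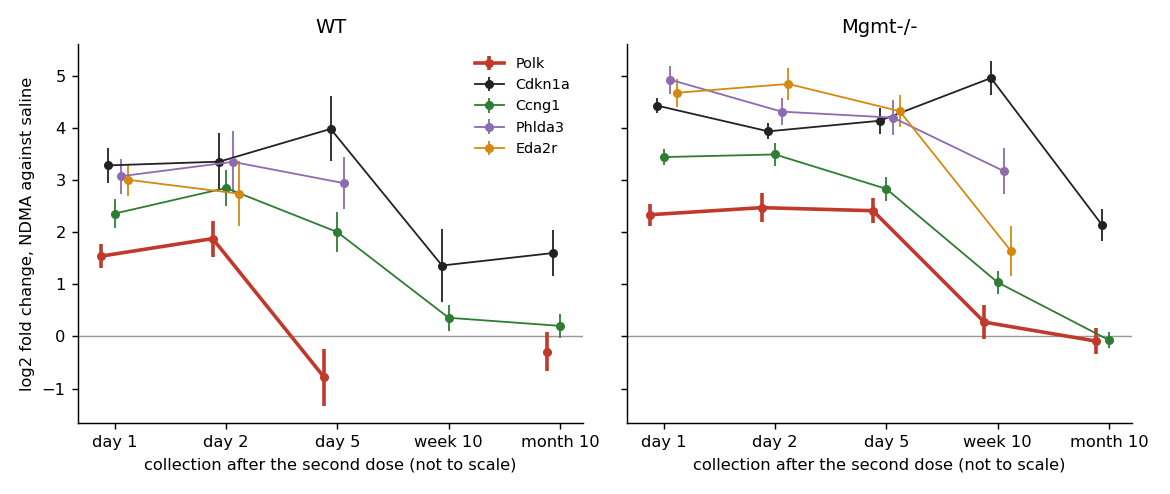
Log2 fold changes of NDMA against saline (y axis, bars give the SE) for Polk and the 4 named p53 targets at each time (x axis, not to scale) in WT (left) and Mgmt-/- (right) livers, with points left out where a gene was below the level needed for its test. In Mgmt-/- liver Polk keeps between 2.33 and 2.47 to day 5 and is at 0.28 at week 10, where Cdkn1a is at 4.95.

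No other Y family member was called in any comparison in which it could be tested. Polh, which bypasses ultraviolet lesions, was tested in Mgmt-/- liver at days 1, 2 and 5 only and was below the level needed elsewhere. There it changed by 0.18, 0.19 and 0.26, none called. At day 1 it stood at 0.677, 5.38 and 14.9 in saline and at 3.68, 6.55 and 11.9 in NDMA mice, and the groups overlapped. Poli stayed below that level in all 10 comparisons, with group medians between 0.924 and 4.56 normalised counts.

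Rev1 was at 5.3, 9.54 and 15.3 in Mgmt-/- saline and at 6.45, 13.5 and 22.7 in NDMA mice at day 1, with 4 of 12 NDMA mice above every saline mouse (log2 fold change 0.45, SE 0.22, adjusted p = 0.14). It was called in none of the 8 comparisons in which it was tested, although with equal library totals it was called at this time, as given above. The largest of its 8 changes in size was a fall at Mgmt-/- week 10 (-0.96, SE 0.42, adjusted p = 0.16). Against day 1 that change differed by -1.41 (SE 0.49, adjusted p = 0.070). The genotype by treatment term of week 10 was -2.38 (SE 0.86, edgeR adjusted p = 0.078). None of these was called, and Rev1 passed the week 10 filter through the saline mice. The difference between Rev1 or Polh and Polk was not tested. Exons of Rev1 overlap exons of Eif5b on the opposite strand, and since the strand of counting is not given in the sources used here, reads of the pair may not be told apart.

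For polymerase zeta, Rev3l and Mad2l2 were called at different times in Mgmt-/- liver, and the difference between them was not tested. Rev3l fell at day 2 in Mgmt-/- liver, from 9.54, 12.8 and 28.1 in saline to 3.5, 7.82 and 12.7 in NDMA mice, and 6 of 8 NDMA mice lay below every saline mouse. The log2 fold change was -0.94 (SE 0.31, adjusted p = 0.024), and it was -0.78 (adjusted p = 0.060) once all libraries had an equal total. Without 1 NDMA (D389071) or either of 2 saline mice (D389029, D389035) the call was lost, with changes of -0.83, -0.74 and -0.85. Rev3l was called in none of the other 9 comparisons, where its change ranged from -0.87 to 0.12. Without the libraries against their labels it changed by -0.57 at WT day 1 (SE 0.21, limma adjusted p = 0.036), just below the fold change asked for.

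Mad2l2 rose in Mgmt-/- liver at day 1, week 10 and month 10. At day 1 it was at 24.2, 47.4 and 98.7 in saline and at 49.4, 74.9 and 122 in NDMA mice, with 3 of 12 above every saline mouse (log2 fold change 0.65, SE 0.16, adjusted p = 0.0019; in batch 200803Eng alone 0.66, adjusted p = 0.24). At week 10 it was at 24.0, 56.3 and 105 against 68.7, 91.6 and 140 (0.81, SE 0.25, adjusted p = 0.032), and at month 10 at 3.62, 28.8 and 41.0 against 22.5, 40.1 and 121 (0.81, SE 0.24, adjusted p = 0.029). The groups overlapped at each time, with 3 of 8 and 6 of 13 NDMA mice above every saline mouse at the 2 late times. At days 2 and 5 it changed by 0.14 (SE 0.15) and -0.09 (SE 0.19). Mad2l2 was the only one of 5 members called at each late time, where 7.27% of all genes were called higher and 3.88% lower at week 10, and 4.75% and 2.99% at month 10. At week 10 the share of calls that were higher was 65.2%, and 86.8% with equal library totals, which moved the median of all genes by 0.20.

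The late calls lay near the threshold. With edgeR the change at week 10 was 0.72 (adjusted p = 0.056), and leaving out any of 5 mice (NDMA D209007, D209029 and D209030, saline D209025 and D209027) ended the call, at 0.70 to 0.79. Depth differed there, with medians of 2061524.5 reads in NDMA and 1341898.5 in saline libraries, and with depth (log2 of a library's reads) as a covariate the change was 0.68 (adjusted p = 0.12). At month 10 that term gave 0.75 (adjusted p = 0.062), and a fit on treatment alone 0.85 (adjusted p = 0.067). In WT liver Mad2l2 rose at day 2, from 19.3, 32.2 and 44.8 to 40.0, 50.3 and 61.3, and 6 of 8 NDMA mice exceeded every saline mouse (0.66, SE 0.16, adjusted p = 0.017; with edgeR adjusted p = 0.086; 0.58, adjusted p = 0.019, without the saline library against its label). This held in 10 of 15 alternatives, with adjusted p up to 0.35. At WT day 1 it changed by 0.42 (SE 0.11, adjusted p = 0.0053), or by 0.47 (SE 0.11, adjusted p = 0.0011) without the 3 libraries against their labels, below the fold change asked for here. The change at week 10 was larger in Mgmt-/- than in WT liver by 1.05 log2 units (edgeR adjusted p = 0.032), where 3.04% of all genes had a larger and 2.27% a smaller change. This call was lost with depth as a covariate (0.94, adjusted p = 0.065) and without the sex and batch terms (1.09, adjusted p = 0.051). The call was also lost without any of 8 of the 32 mice, at 0.96 to 1.02. They were the 5 Mgmt-/- mice just named and 3 WT mice (NDMA D202020 and D202023, saline D202018).

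**Figure D4:**
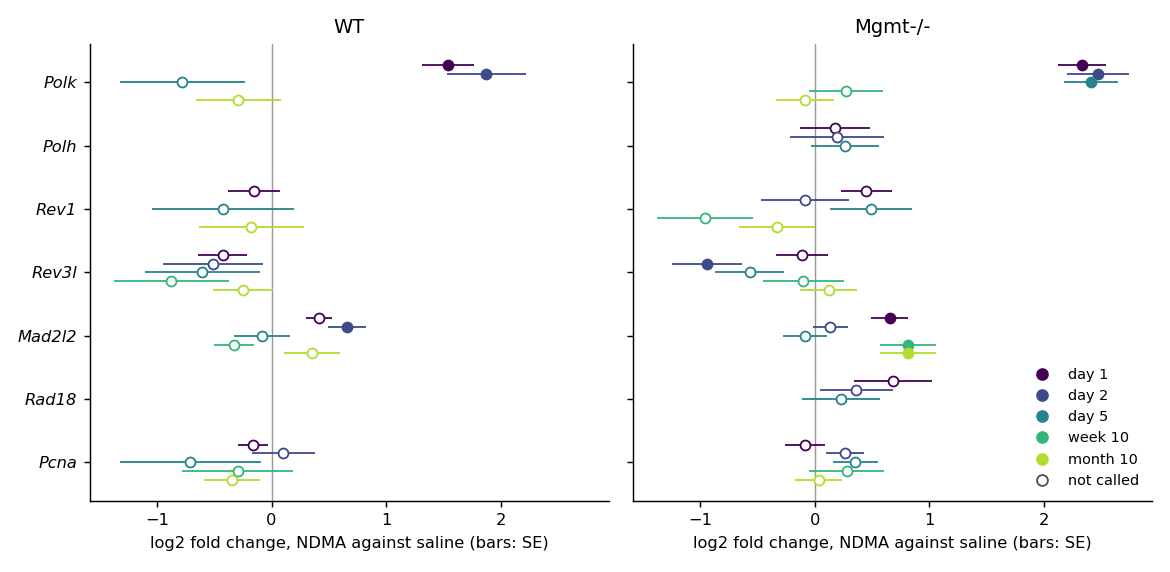
Log2 fold changes of NDMA against saline (x axis, bars give the SE) for the 7 members that could be tested in at least 1 comparison (y axis), coloured by time, in WT (left) and Mgmt-/- (right) livers, filled where called and open where not. Polk stands apart at 1.54 and 1.88 in WT and at 2.33 to 2.47 in Mgmt-/- liver, and the filled points of Mad2l2 lie between 0.65 and 0.81.

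Among 11 genes of polymerase delta and the partners of Mad2l2, Pold4, the small accessory subunit of polymerase delta, was called higher in Mgmt-/- liver at all 5 times. At day 1 it was at 37.5, 75.9 and 152 in saline and at 65.3, 145 and 271 in NDMA mice, and at week 10 at 15.7, 44.3 and 61.2 against 67.4, 90.6 and 151. All 8 NDMA mice of week 10 lay above every saline mouse, a separation that 2.4% of the genes tested shared. The log2 fold changes were 0.93 (SE 0.15, adjusted p = 1.1e-05), 0.99 (SE 0.18), 1.07 (SE 0.23), 1.23 (SE 0.24) and 0.66 (SE 0.16, adjusted p = 0.0080). In WT liver it was called at day 2 (0.64, SE 0.18, adjusted p = 0.037) and day 5 (0.95, SE 0.22, adjusted p = 0.021), but these were 0.42 (adjusted p = 0.19) and 0.70 (adjusted p = 0.20) with depth (log2 of a library's reads) as a covariate. The WT day 2 call was lost without any of 11 of the 16 mice (0.54 to 0.66), all but NDMA D202006, D202007 and D215005 and saline D202001 and D215004, and the day 5 call without any of NDMA D202013 and saline D202009 and D202010 (0.85 to 0.92). Without the libraries against their labels Pold4 was called at WT day 1 as well (0.67, SE 0.10, adjusted p = 5.6e-07).

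Pold2, another accessory subunit of polymerase delta, fell in Mgmt-/- liver at day 1 by 1.17 log2 units (SE 0.27, adjusted p = 0.00086; in batch 200803Eng alone 1.23, adjusted p = 0.35) and at day 5 by 1.04 (SE 0.22, adjusted p = 0.0011). Chosen after their values were seen, Poldip2, a partner of polymerase delta, and Shld2, a shieldin subunit, fell at day 2 (-0.69 and -0.66), and Shld2 also at day 5 (-0.61). Of this list 1 of 10 tested was called higher and 1 lower at day 1, 1 and 2 of 9 at days 2 and 5, 1 and 0 of 9 at week 10 and 1 and 0 of 8 at month 10, with medians between -0.17 and 0.14.

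**Figure D5:**
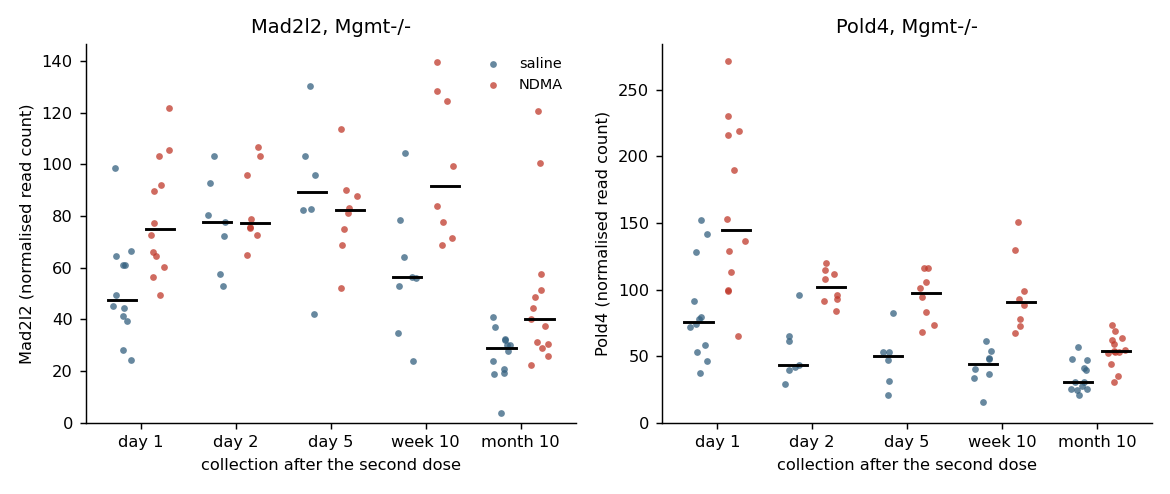
Mad2l2 (left) and Pold4 (right) in normalised read counts (y axes) at each time (x axes) in Mgmt-/- livers, 1 point per mouse and a black bar at each group's median. The NDMA medians of Pold4 lie above the saline medians at all 5 times, and those of Mad2l2 at day 1, week 10 and month 10, with overlapping points in each case but Pold4 at week 10.

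Rad18 and Pcna, which set up the switch to translesion polymerases, were not called in any comparison. Rad18 was tested in Mgmt-/- liver at days 1, 2 and 5, where it changed by 0.68 (SE 0.34, adjusted p = 0.14), 0.36 (SE 0.32) and 0.23 (SE 0.34), and was below the level needed elsewhere. Pcna was tested in all 10 comparisons. In Mgmt-/- liver at day 1 it was at 18.1, 24.9 and 39.9 in saline and at 10.3, 26.5 and 42.1 in NDMA mice (-0.09, SE 0.18), and at day 2 at 23.7, 33.3 and 40.3 against 29.3, 38.9 and 53.9 (0.26, SE 0.17, adjusted p = 0.27). The groups overlapped at both times. The annotation holds 2 Pcna pseudogenes, so its reads are uncertain where they match these copies.

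Of 17 genes that ubiquitinate Pcna, remove the mark or remodel stalled forks, 15 were tested in Mgmt-/- liver at day 1. Dtl, the substrate receptor of the ligase that acts on chromatin-bound Pcna, rose by 0.92 (SE 0.29, adjusted p = 0.016). Its call was lost in 4 of 11 alternatives, with edgeR (0.78, adjusted p = 0.065), with a pseudocount of 5 (0.57, below the fold change asked for) and in batches 191212Eng (0.83, adjusted p = 0.096) and 200803Eng (1.12, adjusted p = 0.33) alone. Rnf8, a ubiquitin ligase at damage sites, fell by 1.08 (SE 0.29, adjusted p = 0.0045), and by 1.09 (adjusted p = 0.25) in batch 200803Eng alone. The median of the list was -0.02, as against 0.02 over all genes. At day 2, 2 of 16 were called higher, Dtl (0.84) and, chosen after its value was seen, the fork remodeller Hltf (0.59). At day 5 limma called none of 14, with 1 below an unadjusted p of 0.05. At week 10, 1 of 12 was, the Pcna-binding factor Pclaf (2.12, SE 0.45, adjusted p = 0.0023), also chosen after its value was seen. At month 10 limma called none of 12, with 2 below an unadjusted p of 0.05. In WT liver 1 of this list was called over the 5 times, Usp1, which removes ubiquitin from Pcna and was chosen after its value was seen (-0.71 at day 1, SE 0.22, adjusted p = 0.016).

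Of 20 genes that load Pcna or replicate DNA, none was called by limma at day 1 in Mgmt-/- liver and 2 had an unadjusted p under 0.05, where the largest changes were those of Rfc2, a clamp loader subunit (-0.44, SE 0.14), and Pola1, the polymerase of polymerase alpha-primase (0.43, SE 0.21). At day 2, 3 of 20 were higher, Fen1, Rfc3 and Pola1, with changes between 0.58 and 0.79. At the later times 2 of 20 (Gins1, Mcm2), 1 of 16 (Gins2) and 1 of 17 (Lig1) were higher and none was lower. In WT liver Lig1 was higher at day 2 (0.94, SE 0.26, adjusted p = 0.027), the only call of this list there, where 2 of 18 were called without the day 2 library against its label. These, apart from Rfc2 and Pola1, were chosen after their values were seen. Among 6 other polymerases of repair and damage tolerance at most 3 could be tested, and limma called none at any time. Polb, which fills base excision gaps, changed by 0.45 (SE 0.15, adjusted p = 0.019, below the fold change asked for) and Poll by 0.03 (SE 0.29) at day 1.

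The summed level of the 6 proliferation markers moved with treatment in the same Mgmt-/- livers. At day 2 its median was 599.2 in NDMA and 289.6 in saline mice, with Birc5 the most abundant in both, and 3 of 6 markers were called higher. At week 10 it was 110.5 against 20.7, with Top2a the most abundant, and 3 of the 3 markers tested were called higher, while the medians of Mki67 and Ccnb1 in saline mice were 0. All 4 were named after their levels had been seen. The counts were 1 of 6 at day 1, 2 of 6 at day 5 and 1 of 3 at month 10. Markers of other cell types moved late as well. At week 10, 1 of 2 cholangiocyte, 1 of 2 B cell and 2 of 5 stellate cell markers were higher. So were 2 of 6 macrophage and 1 of 5 endothelial markers, while 1 of 5 hepatocyte markers was lower. Ratios of medians were 3.54 for Col3a1 and 2.45 for Cd68. At month 10, 1 marker each of the cholangiocyte, macrophage, endothelial, hepatocyte and stellate cell lists was higher, and 1 stellate cell marker was lower. The part of proliferation and of these cell types in the changes of Mad2l2, Pold4, Pclaf and the replication genes was not tested.

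Cell type markers moved too at Mgmt-/- day 1. Alb, Apoa1 and Serpina1c, 3 of 5 hepatocyte markers, were lower, and their list summed to a median of 196701.0 in NDMA and 302754.0 in saline mice. Alb was the most abundant marker and none of the 5 had a median of 0, so the libraries carried the defining transcripts of liver. Of the other lists, 4 of 5 stellate cell markers, Reln (-2.01), Lrat, Col3a1 and Dcn, were lower. Of the endothelial markers 3 of 5 were lower (Stab2, Clec4g, Kdr) and 1 higher (Lyve1). Macrophage markers split into 3 of 6 lower, Clec4f, Csf1r and, chosen after its value was seen, Vsig4, and 2 higher, Marco and Cd68. Alas2 and Hbb-bt, markers of erythroid precursors, fell by 1.06 (SE 0.21) and 0.80 (SE 0.18) log2 units, and both were called lower at days 2 and 5 too. Spp1 of 2 cholangiocyte markers and Cd79b of 2 B cell markers were lower, and none of 5 kidney markers passed the filter, with Kap at a median of 0. Later Spp1 went the other way, with an NDMA median 10.6 times the saline median at week 10 and 5.11 times at month 10.

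Of 3 T cell markers tested, Cd3d was higher at day 1, and all 3 were at days 2 and 5. The summed T cell level of day 2 had a median of 111.1 in NDMA and 24.4 in saline mice. Fewer cells of a type and less RNA per cell cannot be told apart in bulk liver, and the part of these cell types in the change of Polk was not tested. In WT liver at day 1 limma called none of 5 hepatocyte and none of 6 proliferation markers, with 3 and 1 below an unadjusted p of 0.05, while 2 of 3 T cell markers were higher and 3 of 5 stellate cell markers lower. Of the macrophage markers 2 of 6 were higher there, Marco and Cd68, and 1 lower, Csf1r, and Spp1 of 2 cholangiocyte markers was higher and Stab2 of 5 endothelial markers lower. Without the 3 libraries against their labels Clec4f was called lower as well (-0.61, adjusted p = 2.3e-05) and Lyve1 higher (0.62, adjusted p = 1.3e-05). In that fit Alb (-0.48, limma adjusted p = 0.00015) and Cdk1 (0.50, adjusted p = 0.0025) missed a call only on the size of the change. So did the hepatocyte marker Fgb (0.54, adjusted p = 0.0021), chosen after its value was seen.

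In Mgmt-/- liver at day 1 the NDMA median of Polk lay above the saline median in both sexes. All 6 NDMA females (median 38.4, saline 6.9) and all 6 NDMA males (median 35.7, saline 7.26) lay above the saline mice of their sex. The share of all genes that separate so within a sex was not counted, so this is a description. The sex by treatment term was 0.15 (SE 0.43, adjusted p = 0.98) at that time, and no member passed in any of the 10 comparisons, the lowest adjusted p being 0.33. In 8 of these comparisons 0% of all genes passed, and 0.114% and 0.338% did in Mgmt-/- liver at week 10 and month 10. In WT mice at days 2 and 5 and week 10 each sex was read in a batch of its own, so that sex and batch cannot be told apart.

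Saline livers of month 10 and day 1 were compared within batch 200803Eng, where 50.7% of all Mgmt-/- genes and 49% of all WT genes were called. The groups were small. WT had 4 saline livers of day 1 in this batch and fewer of month 10, and Mgmt-/- had 12 of month 10 and as many of day 1 as WT. Pcna was lower in adult Mgmt-/- liver (-0.72, SE 0.30, adjusted p = 0.047), Mad2l2 was lower in adult WT liver (-0.73, SE 0.28, adjusted p = 0.042), and Rev3l was higher there (1.23, SE 0.49, adjusted p = 0.046). Without the WT saline library of day 1 against its label neither WT call held, with Mad2l2 at -0.66 (adjusted p = 0.084) and Rev3l at 0.79 (adjusted p = 0.15), while Pcna was called there (-0.96, SE 0.38, adjusted p = 0.047, as against -0.57, adjusted p = 0.25, with it). With equal library totals, the changes of Pcna in Mgmt-/- and of Mad2l2 in WT liver were -0.50 (adjusted p = 0.17) and -0.49 (adjusted p = 0.19). Polk differed by 0.80 (SE 0.38, adjusted p = 0.082) in Mgmt-/- and by -0.24 (SE 0.64) in WT liver, or 0.51 (SE 0.63) without that library. With equal totals the first was 1.00 (adjusted p = 0.028).

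Over the 94 Mgmt-/- libraries kept, the genes most like Polk by the Pearson correlation of log2 values were Eda2r (0.87), Ccng1 (0.81), Trp53inp1 (0.78), Cxcl9 (0.78), H2-T22 (0.74), 9230114K14Rik (0.74), Phlda3 (0.74) and H2-T9 (0.74), out of 10094 genes. These libraries span treatments, ages and batches, so the order follows what Polk shares with them across all of these. Within the 28 NDMA livers of days 1 to 5 the correlations were between -0.03 (Cxcl9) and 0.60 (9230114K14Rik). The genes most like Pcna were Mcm5 (0.82), Ncapg, Ccnb1, Fignl1 and Ckap2l (0.79).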

How the data were processed

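Livers of 214 mice were listed, and 213 had values. Per the labels and the methods, the authors aligned 3′ digital gene expression reads to GRCm38 (mm10) with STAR and quantified genes with ESAT, and each genotype's counts were scaled by DESeq2 size factors in a table of its own. The deposited values are thus a signal in normalised counts. Every value was a whole multiple of its library's step (tolerance 0.01), so whole reads were recovered for 209 libraries, and 4 stayed out of read tests.

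From these values, limma 3.58.1 was fitted to log2(value + 1), with sex and batch, over genes that averaged 5 or more in a comparison, with Benjamini-Hochberg adjustment over all genes tested. Fold changes are on that scale, which understates low genes. Genotypes were compared by edgeR 4.0.16 quasi-likelihood on reads (TMM), since the tables were normalised separately. DESeq2 1.42.0 was an alternative, under R 4.3.3. Scripts were tested on simulated data, in which only genes with a mean of at least 20 were changed, so recovery at lower levels was not covered. Two-sided tests were used throughout.

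The members, lists and tests were chosen with earlier results of these data known. Named were the 8 members and, from each list, at most 4 genes with the largest change among those called in Mgmt-/- liver at day 1, or else the 2 with the largest change; any other gene is named as chosen after its values were seen. A further marker of 1 cell type list is not reported here. Reads are not known to be single molecules, so limits set by reads cover counting error only. Promoters came from RefSeq (GRCm38.p6), gene positions from GENCODE.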

Additional observations from a re-analysis of the deposited data

Results flagged for a closer look

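The change of Polk was larger in Mgmt-/- than in WT liver at day 5 by 2.67 log2 units, and that of Mad2l2 at week 10 by 1.05, both by the genotype by treatment term of edgeR. The call of Mad2l2 was lost in 2 of 4 alternatives, at adjusted p up to 0.065, and without any of 8 of the 32 mice. That of Polk held in 5 of 5 alternatives. The run without the library against its label is a description only, since Polk stayed in it through the Mgmt-/- NDMA mice. Genotype and batch cannot be told apart at these times. The change of Polk differed from that at day 1 in Mgmt-/- liver at week 10 (-2.06) and month 10 (-2.44), and in WT liver at day 5 (-2.29), week 10 (-2.27) and month 10 (-1.82), by the contrast of limma. In WT liver at week 10 Polk was below the level needed for its own test, so that value is a description only. WT mice of day 5 and week 10 shared no batch with those of day 1, so time and batch cannot be told apart there.

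Among 104 groups of 4 to 10 mice, 3 held a value far from the others, where chance gives about 1 in 20. Polh was at 10.5 in 1 WT NDMA mouse of day 2, with the others between 1.68 and 5.67. Poli was at 9.26 in 1 Mgmt-/- NDMA mouse of day 5, with the others between 0 and 4.33. Rev3l was at 16.4 in 1 Mgmt-/- NDMA mouse of day 5, with the others between 3.91 and 7.12.

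Kap, an androgen-regulated transcript of kidney, was at 6147.3 and 7562.4 in the 2 Mgmt-/- saline livers of day 5 that were left out, where the other groups had medians of 0.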

How the results depend on the processing

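No paired analysis was possible because each mouse had a number of its own. The calls of Polk in Mgmt-/- liver at days 1, 2 and 5 held under every alternative that kept Polk in the test. No result that was called changed direction. With genes of a mean of at least 20 only, Polk left the test, and 0 members were called in Mgmt-/- liver at days 2 and 5 and in WT liver at day 1, and 1 in WT liver at day 2. The count was 1 with the same total in Mgmt-/- liver at day 2, 1 in batch 200803Eng of Mgmt-/- day 1 and 0 in that batch of WT day 1 (Polk 0.86), and 2 at WT day 1 without the fold change threshold. At WT day 2 it was 1 without a filter, with edgeR, with DESeq2 and in batch 200710Eng, and 0 in batch 200724Eng, with Polk at 1.96, or at 2.00 without the library whose Cdkn1a went against its label. That alternative was chosen after seeing the data, as were the other runs without such libraries, the alternatives of the genotype term on depth, shallow libraries, batches and single mice, and the comparison of day 5 with day 2. In Mgmt-/- liver 0 were called at week 10 with edgeR or a depth term, and at month 10 with treatment alone or a depth term. Leaving out 1 mouse gave 1 to 2 members at Mgmt-/- day 2 and 0 to 1 at week 10. The cause was not tested.

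Changes of direction were limited to values that were not called. For Polk these were 0.23 at WT day 5 (depth term), 0.54 and 0.56 at WT month 10 (batches 200710Eng and 200803Eng alone), 0.17 for the genotype term of month 10 (limma), -0.026 for WT day 2 against day 1 (edgeR), and 0.51 for WT saline livers of month 10 against day 1 (without the library against its label). For Mad2l2 they were 0.067 (same total) and 0.26 (all saline libraries) at Mgmt-/- day 5, 0.34 at WT day 5 (batch 200710Eng), and -0.065 and -0.10 at WT month 10 (batches 200710Eng and 200803Eng). For Pcna they were 0.10 and 0.093 at Mgmt-/- day 1 (same total, batch 191212Eng), -0.013 at Mgmt-/- month 10 (depth term), -0.15 and -0.077 at WT day 2 (batch 200724Eng, with and without the library against its label), 0.71 at WT day 5 (depth term), and 0.086 (edgeR), 0.093 (DESeq2), 0.22 (no shallow libraries) and 0.50 (batch 200710Eng) at WT week 10. Polh was at -0.17 in batch 200803Eng of Mgmt-/- day 1. Rev1 was at 0.067 at Mgmt-/- day 2 (same total), at 0.045, 0.032, 0.0063 and 0.15 at WT day 1 (edgeR, DESeq2, depth term, batch 191212Eng), at 0.44, 0.43 and 0.67 at WT day 5 (edgeR, DESeq2, depth term), and at 0.14, 0.14, 0.11 and 1.17 at WT month 10 (edgeR, DESeq2, no shallow libraries, batch 200710Eng). Rev3l was at 0.072 at Mgmt-/- day 1 and 0.078 at week 10 (same total), 0.038 at week 10 (depth term), 0.30 at WT day 1 and 0.088 at month 10 (batch 200803Eng), and 0.072 at WT day 5 (batch 200724Eng without the library against its label). Leaving out 1 mouse moved Mad2l2 from -0.27 to 0.013 at Mgmt-/- and from -0.21 to 0.014 at WT day 5, Pcna from -0.025 to 0.26 at WT day 2 and from -0.45 to 0.22 at week 10, and in Mgmt-/- liver Polh from -0.14 to 0.38 and Rev1 from -0.34 to 0.13 at day 2, Rad18 from -0.10 to 0.37 at day 5 and Rev3l from -0.29 to 0.068 at week 10.

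DESeq2 gave no adjusted p for Polk at WT day 2. Depth limits these tests, since Poli, Polh and Rad18 rested on median reads of 0 to 12 per library and Polk on 8.5 and 4 in Mgmt-/- and WT saline libraries of day 1.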
